A study of Mus musculus with 2 samples.

Results

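The 8 mouse Gimap genes (Gimap1, Gimap3, Gimap4, Gimap5, Gimap6, Gimap7, Gimap8 and Gimap9) were followed in single CD4+ CD25+ T cells of the spleen and the lymph nodes. The members were taken by gene symbol, which gave 8 of the 31056 rows of the count table. The family was picked with values from these same 2 libraries already known, among them the lower levels in spleen, so the tissue values below are a description, and no test is attached to them. The cells came from healthy female mice whose Myc gene is floxed on both chromosomes (Myc fl/fl) and which carry Foxp3 Cre on 1 X chromosome and the wild-type Foxp3 gene on the other (Foxp3 Cre/WT). Cre is driven from Foxp3, the master transcription factor of regulatory T (Treg) cells, so Treg cells that lost Myc and Treg cells that kept it live side by side in such a female. YFP-positive and YFP-negative cells went into the same droplet lane, and every group below comes from mice of the same genotype. Single cells can still differ in Myc, so groups of cells compared below may hold different shares of Myc-deleted cells, which was not tested. There was 1 spleen library and 1 lymph node library. The labels state neither how many mice stand behind a library nor which cells were YFP-positive, so Myc-deleted cells were not told apart here. Cells of 1 library are not replicates, and all intervals are therefore 95% intervals of counting error only.

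GIMAP proteins (GTPases of immunity-associated proteins), several of them membrane-anchored, are GTPases found mainly in lymphocytes. They bind guanine nucleotides through a domain related to that of septins and plant AIG1 proteins, assemble on the surface of organelles such as the endoplasmic reticulum, mitochondria, Golgi and lysosomes, and are best known for keeping naive T and B cells alive. Mice and rats that lack Gimap5 lose most of their peripheral T cells, and mice without it develop colitis with poorly functioning Treg cells.

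All 8 genes lie in 1 cluster on mouse chromosome 6, between chr6:48647234-48770851 of GRCm38 (GENCODE M21), a span of 123.6 kb. In order along the chromosome they are Gimap8, Gimap9, Gimap4, Gimap6, Gimap7, Gimap1, Gimap5 and Gimap3. Gimap6 and Gimap3 are read from the minus strand, and the other 6 genes from the plus strand. Their coding sequences are related but distinct. Gimap3 and Gimap5 are the closest pair, with 88.9% identity over 899 aligned coding bases, and the other pairs lie between 55.8% and 73.3%. Gaps were not counted, and the top of that range is a pair with Gimap8, whose coding sequence is much longer (2064 bases). Among the other pairs without Gimap8 the highest was Gimap1 and Gimap6, at 65.6%. The 3' tag method reads the ends of transcripts, and there the members can be told apart: of the 403 stretches of 98 bases in the last 500 bases of a member's transcript, 0 recur, for each of the 8, in a transcript of another gene. A read-through gene of the cluster, Gm28053, had 10 UMIs in the spleen library and 13 in the lymph node library.

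Because the members sit side by side and shared a direction between the tissues, the 250 bases before the RefSeq transcription start are shown for the pair with the largest difference between spleen and lymph node (Gimap7 and Gimap4) and the pair with the smallest (Gimap9 and Gimap1). They are RefSeq sequences on GRCm38.p6, all on the plus strand, at chr6:48718371-48718620 for Gimap7, chr6:48684328-48684577 for Gimap4, chr6:48675885-48676134 for Gimap9 and chr6:48738797-48739046 for Gimap1. Capitals mark matches, on either strand, to 1 of 7 short motifs.
Gimap7: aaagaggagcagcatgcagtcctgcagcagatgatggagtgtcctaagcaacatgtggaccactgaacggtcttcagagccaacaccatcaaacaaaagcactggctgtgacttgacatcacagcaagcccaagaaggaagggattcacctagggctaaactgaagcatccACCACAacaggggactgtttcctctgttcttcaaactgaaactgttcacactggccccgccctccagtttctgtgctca
Gimap4: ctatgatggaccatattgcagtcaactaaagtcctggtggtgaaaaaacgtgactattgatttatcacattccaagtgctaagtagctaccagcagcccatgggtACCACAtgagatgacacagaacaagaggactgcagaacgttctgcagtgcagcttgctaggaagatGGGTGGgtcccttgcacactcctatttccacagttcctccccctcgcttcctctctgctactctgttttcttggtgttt
Gimap9: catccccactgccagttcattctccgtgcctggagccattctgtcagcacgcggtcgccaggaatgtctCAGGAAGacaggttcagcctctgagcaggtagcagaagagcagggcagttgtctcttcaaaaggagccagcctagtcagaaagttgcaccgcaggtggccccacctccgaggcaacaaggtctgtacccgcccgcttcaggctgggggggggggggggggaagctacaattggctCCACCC
Gimap1: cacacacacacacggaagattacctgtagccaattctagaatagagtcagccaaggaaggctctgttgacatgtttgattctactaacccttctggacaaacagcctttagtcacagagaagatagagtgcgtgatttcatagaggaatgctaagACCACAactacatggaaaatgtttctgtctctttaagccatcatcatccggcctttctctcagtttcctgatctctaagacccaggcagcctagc
The motifs were TGTGGT (RUNX), CAGGAAG (ETS), CCACCC (KLF), CTTTGA (TCF/LEF), GTAAACA (FOXO), TTCNNNGAA (STAT) and the interferon response element, each searched on both strands. The only overlap among the members was the symmetric STAT match of Gimap6, which reads the same on both strands. Among all 8 members, RUNX letters were found before Gimap1, Gimap4 and Gimap7, where 14.0% of 32851 mouse promoter windows hold them. ETS letters stood before Gimap3, Gimap5 and Gimap9 (10.8% of windows), and KLF letters before Gimap3, Gimap4, Gimap5 and Gimap9 (28.1% of windows). FOXO letters stood before Gimap3 alone (3.17% of windows) and STAT letters before Gimap6 alone (7.02%), while TCF/LEF letters (13.8%) and the interferon response letters (2.98%) were in none of the 8 windows. A match describes these letters only. The 4 windows printed hold 2 CpG dinucleotides for Gimap7, 3 for Gimap4, 8 for Gimap9 and 3 for Gimap1, against a median of 6 over all windows.

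The spleen library kept 6543 of 6840 barcodes with 16641089 UMIs (unique molecular identifiers, 1 per captured transcript), and the lymph node library kept 4820 of 5079 with 13053739 UMIs. A kept cell held a median of 1935 UMIs in spleen and 2031 in lymph node, and the median mitochondrial share was 2.58% and 2.59%. The libraries share 45 cell barcodes. T cell markers were present in both, at 4223 CPM (a gene's UMIs over all UMIs of the same cells, times 1000000) in spleen and 4115 CPM in lymph node summed over 5 genes, as were 4 Treg markers, at 1154 and 1107 CPM. Of the markers of other cells, 7 B cell genes summed to 143.7 CPM in spleen and 211.5 CPM in lymph node, 5 NK cell genes to 13.8 and 20.9 CPM, 2 CD8 genes to 42.4 CPM or less, 5 myeloid genes to 36.4 and 20.2 CPM, and 4 haemoglobin genes to 0.961 CPM in spleen against 326 CPM in lymph node. In spleen, 1 NK gene and 1 haemoglobin gene were at 0.

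Gimap transcripts were abundant in both tissues. Summed over the 8 members, the spleen library held 31964 Gimap UMIs or 1921 CPM (interval 1900 to 1942) and the lymph node library 38774 UMIs or 2970 CPM (interval 2941 to 3000). On the log2 scale the sum was -0.63 in spleen over lymph node (interval -0.65 to -0.61), which is 1.55-fold lower in spleen. All 8 members were lower in spleen, and all 8 intervals stayed below 0. When every cell was thinned to 1200 UMIs, 86.9% of spleen cells and 95.6% of lymph node cells still held at least 1 Gimap UMI (96.0% and 98.9% without thinning). The median cell then showed 2 different members in spleen and 3 in lymph node.

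**Figure D1:**
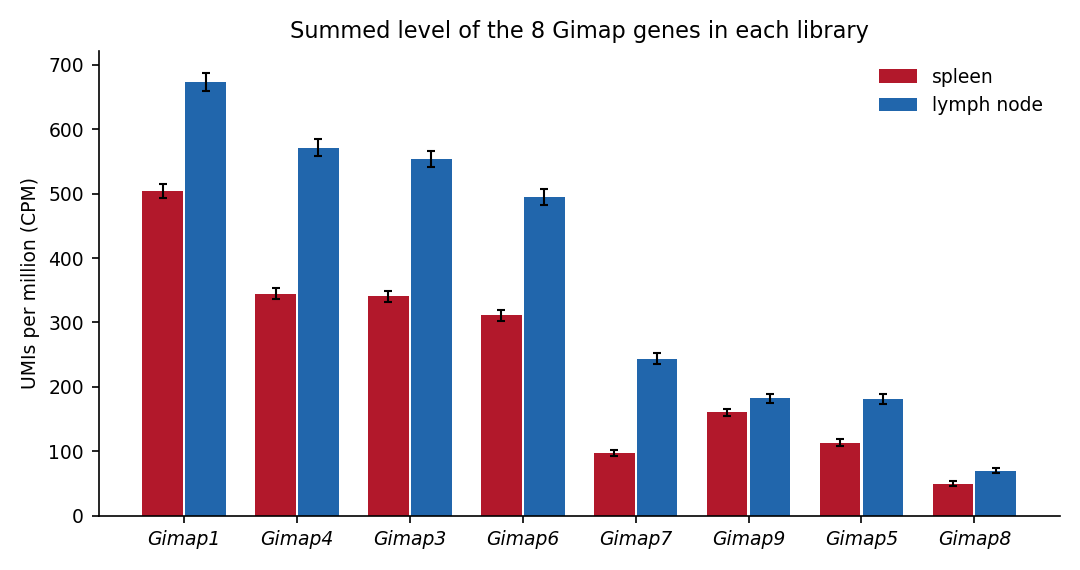
Level of each of the 8 Gimap genes in CPM, with the spleen library (red, left) beside the lymph node library (blue, right) and bars for exact Poisson 95% intervals. Each gene is lower in spleen, and the ratio is farthest from 1 for Gimap7, at 97.3 against 244 CPM.

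The members fell into a strong and a weak group in both libraries. A 3' tag counts each transcript once whatever its length, so no length correction was made. Whether capture and read assignment are alike for the members was not tested, so the order below is that of the counts. Gimap1, which mature T and B cells of the mouse need for survival, led with 504 CPM in spleen and 673 CPM in lymph node. Gimap4, linked in mouse T cells to the pace of cell death, followed with 345 CPM in spleen and 571 CPM in lymph node. Gimap3, a protein of the endoplasmic reticulum and mitochondria reported to bind Bcl-2 proteins, stood at 340.5 CPM in spleen and 554 CPM in lymph node. The intervals of Gimap4 and Gimap3 overlapped in both libraries, so the order of this pair is not resolved. Gimap6, a partner of the ATG8 proteins of autophagy, came next with 311 CPM in spleen and 495 CPM in lymph node.

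The weak group was ordered differently in the tissues. Gimap9 had 160.2 CPM in spleen and 182 CPM in lymph node. Gimap5, which sits on lysosomes, had 113 CPM in spleen and 181 CPM in lymph node. Gimap7, whose human counterpart is known to switch on GTP hydrolysis by dimerising, had 97.3 CPM in spleen (interval 92.6 to 102) and 244 CPM in lymph node (interval 235.6 to 252.6). So Gimap7 ranked below Gimap9 and Gimap5 in spleen and above both in lymph node, and Gimap9 and Gimap5 could not be told apart in lymph node, where their intervals overlapped. Gimap8, the longest member at 2064 coding bases against 873 to 984 for the rest, was the lowest, with 49.7 CPM in spleen and 70.1 CPM in lymph node. Gimap7 made up 5.07% of all Gimap UMIs in spleen and 8.21% in lymph node, while Gimap1 made up 26.2% and 22.7%.

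Between the tissues the members spread over more than a log2 unit. Gimap7 differed most, at -1.33 in spleen over lymph node (interval -1.41 to -1.24), or 2.51-fold lower. Gimap4 (-0.73), Gimap3 (-0.70), Gimap5 (-0.68) and Gimap6 (-0.67) lay close together, each between 1.59-fold and 1.66-fold lower. Gimap8 was at -0.50 (interval -0.63 to -0.36) and Gimap1 at -0.42 (interval -0.46 to -0.37), 1.41-fold and 1.34-fold lower. Gimap9 differed least, at -0.18 (interval -0.26 to -0.10). At least 1.5-fold lower in spleen were 5 of 8 members (Gimap3, Gimap4, Gimap5, Gimap6 and Gimap7), where 0.872% of the 5048 genes with at least 20 CPM were. Since the family was picked on this contrast, nothing is read from that share. Of the 1277 genes at 100 CPM or more, 0 had a lower ratio than Gimap7, 2 a lower ratio than Gimap4 and 87 a lower ratio than Gimap9. These counts include other members, such as Gimap7 below Gimap4. They depend on the floor: at 20 CPM, Cxcr3 (described below) had a lower ratio than Gimap7. As they rank the contrast the family was picked on, nothing is read from them either.

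The tissue ratio was also described within cell subsets, for a family picked with the lower spleen level known. Kept cells were cut into 18 subsets by whether they held a UMI of 1 of 9 genes, and into 5 classes of UMIs per cell. The family sum was lower in spleen in 23 of 23 subsets, with log2 values between -0.90 in cells with a Klrg1 UMI and -0.40 in the shallowest cells. All members except Gimap9 were lower in 23 of 23. Gimap9 was lower in 21 of 23, the other 2 being cells with an ICRE UMI, at 0.03 (interval -0.26 to 0.31), and cells with an Ifit1 UMI, at 0.13 (interval -0.19 to 0.45). Gimap7 had the widest span, from -0.64 to -1.99. The subsets overlap in cells and all come from the same 2 libraries, so they are not independent repeats. Undetected classes of a rare gate gene hold most cells (6415 of 6543 in spleen for Mki67), so their ratios had to lie near that of all cells. Nothing is therefore read from the number of subsets. Without the 270 spleen and 244 lymph node cells that carry B, CD8, NK, myeloid or haemoglobin markers, the family sum was again at -0.63.

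**Figure D2:**
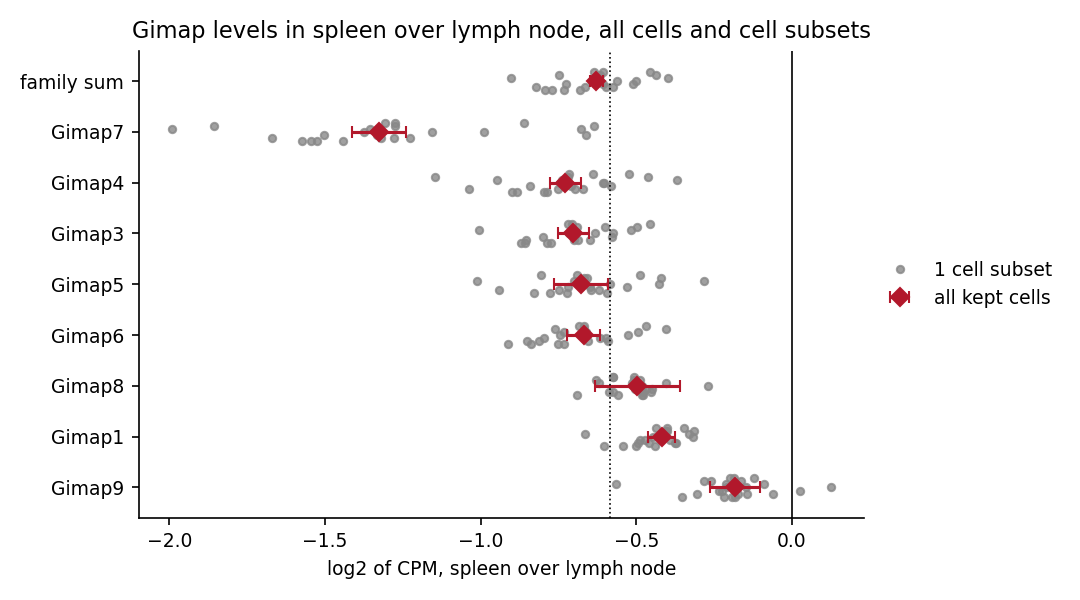
Log2 ratio of CPM in spleen over lymph node for the family sum and each member: diamonds show all kept cells with 95% counting intervals, grey points the 23 subsets (18 by a gate gene detected or not, 5 by UMIs per cell), and the dotted line a 1.5-fold lower level. Points of 7 members and of the sum lie left of 0 throughout, Gimap7 reaches -1.99, and 2 Gimap9 points lie right of 0.

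B cells express Gimap genes too, and a few were in the sort. The 68 spleen and 56 lymph node cells with at least 2 UMIs of B cell markers and fewer than 2 UMIs of T cell markers, a class chosen after seeing the data, had 1896 CPM of the family in spleen (268 UMIs) and 1824 CPM in lymph node (263 UMIs). Their log2 ratio was 0.06 (interval -0.19 to 0.31), an interval that does not reach the -0.63 of all cells. Gimap7 stood at 198 CPM in these spleen cells and 166 CPM in these lymph node cells, a log2 ratio of 0.25 (interval -0.59 to 1.10) from 28 and 24 UMIs. Among all cells with at least 2 UMIs of B cell markers, whatever their T cell markers (139 in spleen, 158 in lymph node), the ratio was -0.53 (interval -0.65 to -0.41). So the lower level of spleen was not seen in the narrower class but was in the wider one. What the wider class adds are cells with at least 2 UMIs of T cell markers, so it does not describe B cells alone. Its median depth was 2539 UMIs in spleen and 3225.5 in lymph node. In the cells with at least 2 UMIs of CD8 markers the family ratio was -0.65 (interval -0.84 to -0.47, 71 spleen and 51 lymph node cells).

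The family level also went with how many UMIs a cell gave, which bears on each gate below. From the shallowest to the deepest of 5 classes, the family sum ran through 2818, 2635, 2239.8, 1839.8 and 1398 CPM in spleen and through 3717, 3567, 3408, 3057 and 2475 CPM in lymph node. Deep cells thus held a smaller share of Gimap transcripts in both tissues. Gimap7 was the exception in lymph node, with 209, 202, 264, 272 and 242 CPM over the same classes, against 130.4, 129.7, 109, 94.6 and 76.0 CPM in spleen. As a result the spleen over lymph node ratio of Gimap7 ran through -0.68, -0.64, -1.28, -1.53 and -1.67, and that of the family sum through -0.40, -0.44, -0.61, -0.73 and -0.82.

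**Figure D3:**
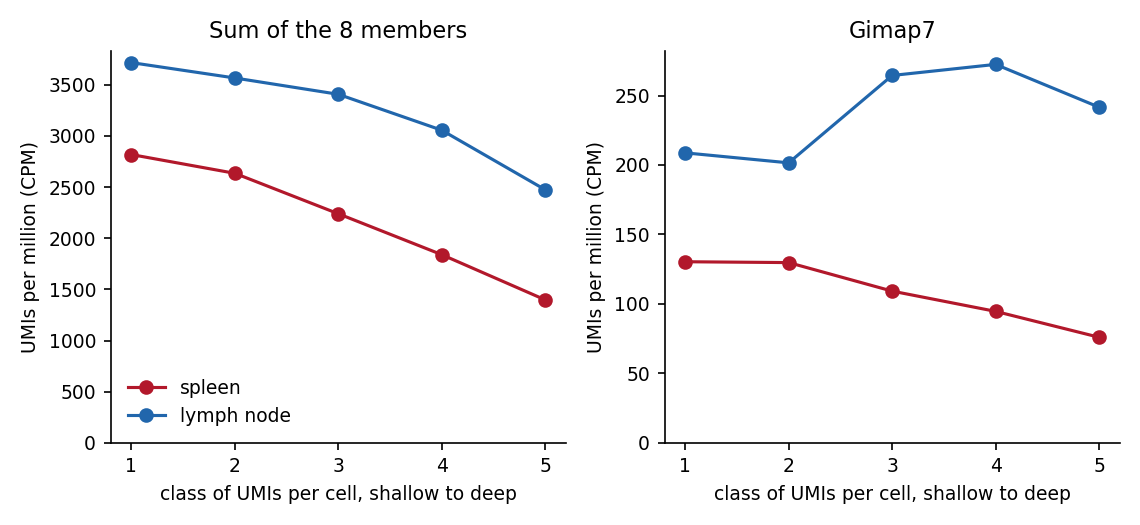
CPM of the family sum (left panel) and of Gimap7 (right panel) in 5 classes of UMIs per cell, shallow to deep, in spleen (red) and lymph node (blue), with both axes starting at 0. The sum declines with depth in both libraries, from 2818 to 1398 CPM in spleen, while Gimap7 in lymph node moves between 202 and 272 CPM without such a decline.

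Gates were set on raw UMIs: a cell with at least 1 UMI of a gene was compared with cells that had 0. Deep cells pass a gate more easily, so each ratio is given a second time against undetected cells weighted to the same UMIs per cell (10 bins), called depth-matched below. Values in parentheses are log2 ratios of detected over undetected cells with their intervals. All 8 members passed the minimum of 20 CPM in every gate. The median gene itself shifted by 0.10 and 0.10 in the ICRE gate (spleen and lymph node), by 0.14 and 0.11 in the Klrg1 gate and by 0.10 in the spleen Tnfrsf9 gate, and by less than 0.1 elsewhere. B cell markers were lower in detected cells of the 6 main gates, between 53.3 CPM against 166 CPM (Ly6c1, spleen) and 157 CPM against 216 CPM (Klrg1, lymph node), except for ICRE in lymph node, at 266 CPM in detected and 208 CPM in undetected cells. NK and myeloid markers were lower in detected cells of these gates too, except for Klrg1 in lymph node, where NK markers were at 32.1 CPM in detected and 20.1 CPM in undetected cells and myeloid markers at 24.3 and 19.9 CPM. Haemoglobin genes in lymph node summed to between 104 and 133 CPM in detected cells and between 337 and 409 CPM in undetected cells. CD8 markers went both ways. In lymph node they were higher in detected cells for Foxp3 (39.9 against 37.3 CPM), ICRE (46.6 against 37.5), Il2ra (45.6 against 34.9) and Ifit1 (68.8 against 36.3). In spleen they were higher for Ifit1 (49.7 against 41.7 CPM), and in the rest of these gates they were lower. Without the cells that carry other cell type markers, the family ratio kept its sign in each of the 6 gates and both libraries, between -0.41 (Klrg1, spleen) and 0.39 (ICRE, spleen).

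Foxp3 was detected in 1239 spleen cells (18.9%) and 1007 lymph node cells (20.9%), against 2.94% and 0% of the B-marker cells without T cell markers, whose median depths were 1999 and 2335.5 UMIs. These 0 of 56 cells allow a share of up to 6.38% (exact binomial). In spleen the family had 1679 CPM in Foxp3-detected cells and 2012 CPM in undetected cells, a log2 ratio of -0.26 (interval -0.30 to -0.22). In lymph node it had 2907 CPM in detected and 2994 CPM in undetected cells, at -0.04 (interval -0.08 to -0.01). Detected cells were deeper, with medians of 2940 against 1793 UMIs in spleen and 2849 against 1846 in lymph node, and depth-matched the ratio turned to 0.12 in both. Past 1.5-fold in either direction were 0 of 8 members in spleen and 0 of 8 in lymph node, where 4.82% and 3.24% of all genes were. Gimap7 stood apart in lymph node, with 278 CPM in detected and 231 CPM in undetected cells (0.26, interval 0.16 to 0.37), and depth-matched it was at 0.29 in spleen and 0.27 in lymph node.

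ICRE is a row of the count table that the labels do not describe, and what an ICRE UMI marks was not tested. Gimap transcripts made up a larger share of all UMIs in ICRE-detected cells of both tissues. The family had 2497 CPM in 549 detected and 1880.3 CPM in 5994 undetected spleen cells (0.41, interval 0.35 to 0.47). In lymph node it had 3554 CPM in 379 detected and 2936 CPM in 4441 undetected cells (0.28, interval 0.22 to 0.33). ICRE-detected cells were shallower (medians of 1663 against 1989.5 UMIs in spleen and 1620 against 2104 in lymph node), and depth-matched the ratios were 0.20 and 0.12. Of the 8 members, 2 passed 1.5-fold in spleen (Gimap8 at 0.59 and Gimap9 at 0.61) and 0 in lymph node, where 7.55% and 13.8% of all genes did. Depth-matched, neither passed it, with Gimap8 at 0.42 and Gimap9 at 0.39 in spleen. Gimap7 pointed up in spleen, with 131 CPM in detected and 94.9 CPM in undetected cells, and down in lymph node, with 207 and 246 CPM.

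Foxp3 and ICRE were also crossed. Cells with ICRE but no Foxp3 had 2569.5 CPM of the family in spleen (505 cells) and 3531 CPM in lymph node (354 cells). Cells with Foxp3 but no ICRE had 1666 CPM in spleen (1195 cells) and 2887 CPM in lymph node (982 cells), and cells with neither had 1965 and 2955 CPM. The 44 spleen and 25 lymph node cells with both had 2044 CPM (interval 1822 to 2284) and 3738 CPM (interval 3333 to 4179). ICRE-only cells therefore lay above Foxp3-only cells in both libraries, at a median depth of 1635 against 2941 UMIs in spleen and 1605.5 against 2859.5 in lymph node.

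Klrg1, an inhibitory receptor of effector T cells, was detected in 229 of 6543 spleen cells and 223 of 4820 lymph node cells (4.63%). The B-marker cells without T cell markers gave 0% (up to 5.28%) and 3.57% (interval 0.44% to 12.3%). These cells are too few to tell the share from background. Treg markers stood at 2242 CPM in Klrg1-detected and 1083 CPM in undetected spleen cells, and at 1896 and 1048 CPM in lymph node. The family had 1455 CPM in detected and 1951 CPM in undetected spleen cells (-0.42, interval -0.50 to -0.35). In lymph node it had 2722 CPM in detected and 2989 CPM in undetected cells (-0.13, interval -0.19 to -0.08). Detected cells were much deeper (medians of 3384 against 1907 UMIs in spleen and 3209 against 1991 in lymph node), and depth-matched the ratios turned to 0.02 and 0.07. In spleen 1 member, Gimap3, passed 1.5-fold at -0.69, with 216 CPM in detected and 349 CPM in undetected cells, and in lymph node 0 did, beside 25.1% and 17.3% of all genes. Depth-matched, Gimap3 was at -0.19 in spleen and -0.09 in lymph node. Gimap7 in lymph node again went its own way, at 319.5 CPM in detected and 238 CPM in undetected cells (0.42, interval 0.24 to 0.60, and 0.47 depth-matched). In spleen it had 80.3 and 98.4 CPM (-0.29), and depth-matched it was on the same side as in lymph node, at 0.10.

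Ly6c1 encodes a lipid-anchored surface antigen of T cells and myeloid cells, and its close copy Ly6c2 may share reads with it. It was detected in 1373 spleen and 923 lymph node cells, with median depths of 1884 against 1949.5 UMIs in spleen and 1799 against 2093 in lymph node. The family had 2242 CPM in detected and 1840.3 CPM in undetected spleen cells (0.28, interval 0.25 to 0.32), and depth-matched it was at 0.24. In lymph node it had 3076 CPM in detected and 2948 CPM in undetected cells (0.06, interval 0.02 to 0.10), and depth-matched 0.01. Gimap4 led in spleen, with 434 CPM in detected and 323 CPM in undetected cells (0.43, interval 0.34 to 0.51). Past 1.5-fold were 0 of 8 members in spleen and 0 of 8 in lymph node, where 3.97% and 3.69% of all genes were. Cells with Ly6c1 but no Klrg1 had 2279 CPM of the family in spleen (1352 cells) and 3089 CPM in lymph node (908 cells), against 1487 and 2727 CPM in cells with Klrg1 but no Ly6c1 (208 cells in each library) and 1866 and 2966 CPM in cells with neither. The 21 spleen and 15 lymph node cells with both had 1214 and 2652 CPM.

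Il2ra encodes CD25, the protein the cells were sorted on, and its transcript was detected in 30.7% of spleen and 25.7% of lymph node cells, against 1.47% and 3.57% of the B-marker cells without T cell markers. The family hardly differed by this gate. It had 1843 CPM in detected and 1963 CPM in undetected spleen cells (-0.09, interval -0.12 to -0.06), and 2925 and 2989 CPM in lymph node (-0.03, interval -0.06 to 0.00), and depth-matched the ratios turned to 0.05 and 0.03. Past 1.5-fold were 0 of 8 members in both libraries, where 0.792% of all genes were in spleen and 0.973% in lymph node.

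Ifit1 is an interferon-induced gene, and its gate asks whether the Gimap GTPases go with the interferon-induced ones. The family had 2036 CPM in 522 detected and 1910.3 CPM in 6021 undetected spleen cells (0.09, interval 0.04 to 0.15), and 3007 CPM in 240 detected and 2968 CPM in 4580 undetected lymph node cells (0.02, interval -0.05 to 0.08). Depth-matched, these were 0.15 and 0.06. Past 1.5-fold were 0 of 8 members in each library, against 4.27% of all genes in spleen and 8.63% in lymph node. Gimap7 was the highest member in both, with 127 CPM in detected and 94.6 CPM in undetected spleen cells (0.42, interval 0.19 to 0.65) and 283 and 242 CPM in lymph node (0.22, interval 0.01 to 0.43). Of the interferon-induced GTPases of the Gbp and Irg families, 10 of the 12 measured in spleen and 11 of 11 in lymph node were at least 1.5-fold higher in Ifit1-detected cells. Of all genes, 2.13% in spleen and 4.48% in lymph node were higher by that much. Because the gate gene is itself interferon-induced, this count was to be expected and only describes the gate. Genes count as measured by their mean over both groups, so some may enter through the detected cells where they are high. Irgm1, which acts on membranes around intracellular microbes, had 135 CPM in detected and 42.6 CPM in undetected spleen cells and 124 and 40.3 CPM in lymph node.

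**Figure D4:**
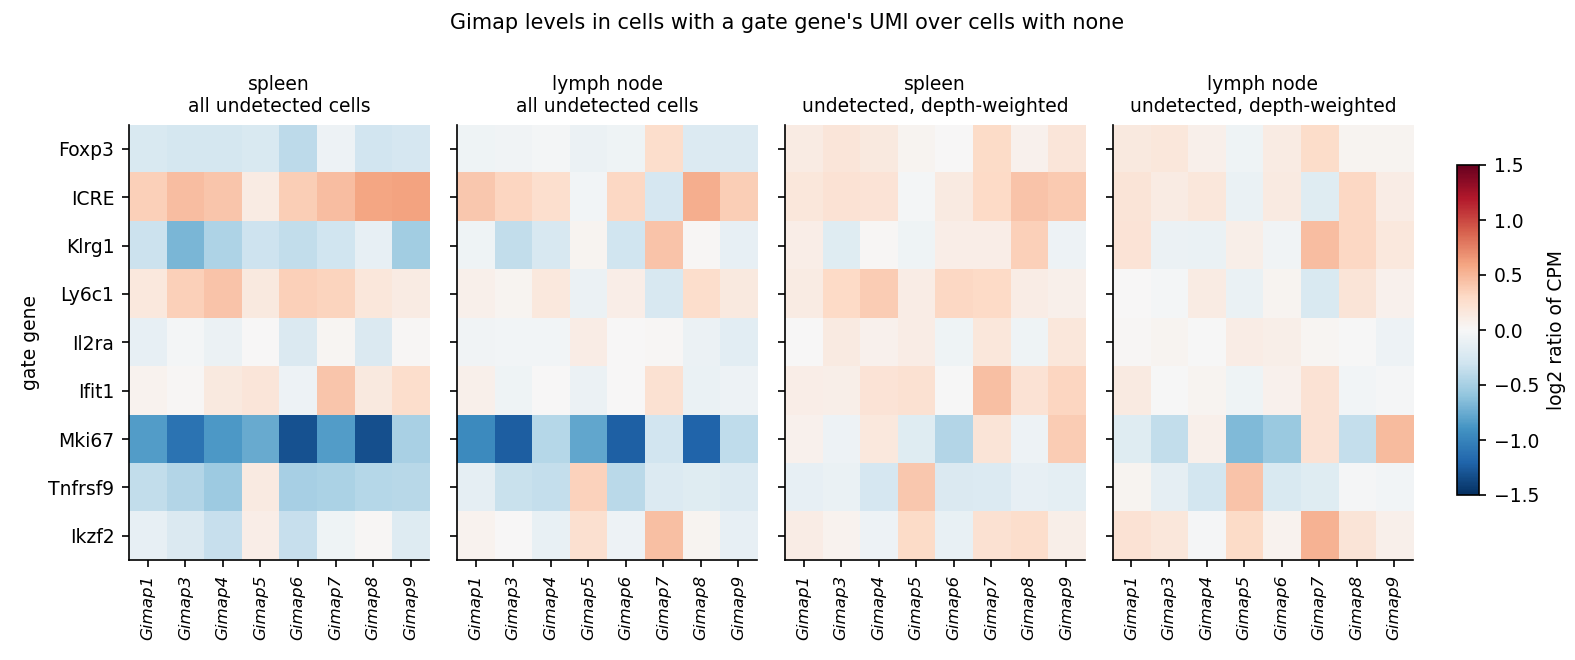
Log2 ratio of CPM in cells with a gate gene's UMI over cells with none, for 9 gate genes (rows) and 8 Gimap genes (columns), in spleen and lymph node, first against all undetected cells (left pair of panels) and then against undetected cells weighted to the same UMIs per cell (right pair). Gimap8 in the Mki67 row of spleen is at -1.32 before and -0.07 after weighting, Gimap5 in that row of lymph node is at -0.78 before and -0.66 after, and Gimap5 in the Tnfrsf9 row is at 0.40 in spleen and 0.42 in lymph node after it.

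Further gates asked about cycling, activation and Helios. Cells with Mki67, a gene of cycling cells, had the lowest family levels of the 9 gates, with 1041 CPM in 128 detected and 1978 CPM in 6415 undetected spleen cells (-0.93, interval -1.02 to -0.84). In lymph node they had 1747.5 CPM in 114 detected and 3076 CPM in 4706 undetected cells (-0.82, interval -0.88 to -0.75). At least 1.5-fold lower were 7 of 8 members in spleen (all but Gimap9) and 5 of 8 in lymph node (Gimap1, Gimap3, Gimap5, Gimap6 and Gimap8), where 12.9% and 14.5% of all genes were. Mki67-detected cells are by far the deepest, at medians of 7684 against 1913 UMIs in spleen and 8026 against 2000 in lymph node. Depth-matched, the family was at 0.00 in spleen and -0.16 in lymph node, so undetected cells of that depth had much of the same difference. The depth-matched values of single members have no interval, so a value near 0 cannot be told from 0. Some rest on few UMIs, such as 21 in spleen and 33 in lymph node for Gimap8 in Mki67-detected cells. Gimap6 (-0.44 and -0.56), Gimap5 (-0.18 and -0.66), Gimap3 (-0.08 and -0.37) and Gimap8 (-0.07 and -0.36) were below 0 in both libraries. Gimap9 (0.38 and 0.47), Gimap7 (0.19 and 0.22) and Gimap4 (0.16 and 0.07) were above 0 in both.

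Tnfrsf9, which encodes the activation receptor 4-1BB, went with lower levels of 7 of 8 members in both libraries before depth matching. The sum had 1533 CPM in 1134 detected and 2037 CPM in 5409 undetected spleen cells (-0.41, interval -0.45 to -0.37) and 2615 CPM in 896 detected and 3083 CPM in 3924 undetected lymph node cells (-0.24, interval -0.27 to -0.20). Depth-matched it was at -0.13 and -0.09. Gimap5 pointed the other way, with 121 CPM in detected and 111 CPM in undetected spleen cells (0.13, interval -0.02 to 0.29) and 216 and 170.0 CPM in lymph node (0.34, interval 0.21 to 0.47), and depth-matched it was at 0.40 and 0.42. At least 1.5-fold lower were 0 of 8 members in both libraries, where 2.72% of all genes were in spleen and 2.2% in lymph node. Gimap4 was at -0.55 in spleen and -0.36 in lymph node, and -0.25 and -0.28 depth-matched.

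Ikzf2, which encodes Helios, a factor of thymus-derived Treg cells, gave family ratios of -0.20 in spleen and 0.02 in lymph node, and 0.05 and 0.15 depth-matched. Gimap7 in lymph node had 271 CPM in 2792 Helios-detected cells and 198 CPM in 2028 undetected cells (0.45, interval 0.34 to 0.56), while in spleen it had 95.5 and 99.8 CPM (-0.06, interval -0.21 to 0.08). Depth-matched, Gimap7 was at 0.23 in spleen and 0.52 in lymph node.

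Over the 12 log2 ratios of the first 6 gates in 2 libraries, 6 members moved with the sum of the others (Pearson r between 0.80 for Gimap8 and 0.97 for Gimap4), while Gimap5 (0.70) and Gimap7 (0.33) followed it less closely. The 12 points share libraries, cells and depth, so these values are descriptions. Gimap3 and Gimap4 were the closest pair, at 0.97, and Gimap7 and Gimap8 the farthest, at 0.10. Among 1216 other genes at 100 CPM or more in both libraries, the 5 whose 12 ratios were most like those of the family sum were Acp5, an acid phosphatase (0.97), H2-Q7, an MHC class Ib gene (0.96), Trbc2, a T cell receptor constant gene (0.95), Cox14, an assembly factor of cytochrome oxidase (0.95), and Lamp1, a lysosomal membrane protein (0.95). In spleen over lymph node these 5 were at -0.35, -0.30, -0.07, -0.02 and -0.11.

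Partners of GIMAP proteins were compared between the tissues as well. Of the ATG8 family, which Gimap6 binds, 3 of 5 genes were measured and 0 passed 1.5-fold in either direction between the tissues, where 0.713% of all genes were higher and 0.872% lower in spleen. All 3 were below 0, and their median log2 ratio was -0.08, beside 0.02 for all genes tested, and Gabarapl2 was the lowest at -0.24 (193 CPM in spleen, 227 CPM in lymph node). Of the Bcl-2 family, which governs mitochondrial cell death, 10 of 12 were measured, 0 passed 1.5-fold and the median was -0.08, with 3 of 10 above 0. Bcl2 itself was at 0.49, with 819 CPM in spleen and 582 CPM in lymph node. Of the interferon-induced GTPases, 11 of 14 were measured, 0 passed and the median was 0.12.

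Genes of resting and effector T cells were set beside the family. Of the 12 resting T cell genes, 1 was at least 1.5-fold higher in spleen (Ccr7, the lymph node homing receptor, with 303 CPM in spleen and 187 CPM in lymph node) and 0 lower, beside 0.713% and 0.872% of all genes. In ICRE-detected cells 6 of 12 were higher past 1.5-fold in spleen and 10 of 12 in lymph node, beside 4.67% and 8.64% of all genes, and 1 (Dapl1) was lower in lymph node. In Klrg1-detected cells 10 of 12 were lower in both, beside 365 of 5213 and 262 of 5166 genes overall. These ratios were not depth-matched. Of the 13 effector Treg genes, 11 were measured between the tissues. Past 1.5-fold, 2 were higher in spleen (Icos and Itgae) and 1 lower, beside the same 0.713% and 0.872% of all genes. The lower one was the chemokine receptor Cxcr3, at 35.2 CPM in spleen and 102 CPM in lymph node. In ICRE-detected cells 11 of 11 measured in spleen and 9 of 9 in lymph node were lower, beside 2.88% and 5.20% of all genes. In Klrg1-detected cells 10 of 10 measured effector genes were higher in both libraries, beside 18.1% and 12.2% of all genes, again without depth matching. The list of 13 effector genes names Klrg1 itself, and both lists were chosen with earlier results of these data known. Higher effector genes in the Klrg1 gate were thus to be expected, and nothing is read from the counts of either list. Klf2, a factor of T cell quiescence, had 1737 CPM in ICRE-detected and 978 CPM in undetected spleen cells and 1879 and 924 CPM in lymph node. Next to a family ratio of 0.41 in spleen and 0.28 in lymph node, the median of the resting genes in the ICRE gate was 0.57 and 0.68. In the Ly6c1 gate of spleen it was 0.08, next to a family ratio of 0.28. Between the tissues, 8 of 12 resting genes had a ratio above 0, near the 55.3% of all genes, among them Dapl1 (0.34) and Lef1 (0.22).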

How the data were processed

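Droplet 3' RNA sequencing (10x V2 kit) was done on 1 spleen and 1 lymph node library. The authors deposited UMI counts per gene and barcode, made with Cell Ranger 3.0.1 on mm10, per the submitters' processing notes and the file headers. The annotation behind the counts was not stated there. A barcode was kept if it had 500 genes or more and no more than 10% of its UMIs from mitochondrial genes, and no doublet caller was run. Cells with other cell type markers (2 UMIs, or 10 for haemoglobin) were left out in an alternative instead. Members and gene lists were chosen with earlier results of these data known. For each set of cells the UMIs of a gene were added up and expressed as CPM. Levels have exact Poisson intervals and log2 ratios exact conditional binomial intervals, both for counting error only. With 1 library per tissue there is no test across samples, and no p-value is given. A gene was measured in a comparison at a mean of 20 CPM or more, and 1.5-fold was the size threshold. Named genes were all members, the 5 genes most like the family, up to 3 genes from each list by size of the log2 ratio with the same sign in both libraries, and other Gimap rows. The summing, intervals and weighting were checked on simulated counts (Python 3.11.15, numpy 2.4.6, scipy 1.17.1, pandas 2.3.3). Promoters are RefSeq windows on GRCm38.p6, matched for 8 of 8 members, and gene positions are from GENCODE M21. One gate, with its gene, is not reported here.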

Additional observations from a re-analysis of the deposited data

Results flagged for a closer look

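In each of the following pairs the spleen and lymph node libraries gave opposite directions under the same gate, with both counting intervals off 0. The difference between the libraries was not tested, since there is 1 library per tissue. Gimap7 was at a log2 ratio of 0.46 in ICRE-detected over undetected spleen cells and at -0.25 in lymph node. Gimap7 was at 0.34 in Ly6c1-detected over undetected spleen cells and at -0.24 in lymph node. Depth-matched, Gimap7 stayed on both sides of 0 in both gates (ICRE 0.29 and -0.18, Ly6c1 0.30 and -0.22).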

How the results depend on the processing

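The family ratio between the tissues stayed negative under every alternative, at -0.58 with cells thinned to 1200 UMIs and -0.56 as the mean of per-cell CPM. Among the gates, the following family ratios moved beyond their counting interval (spleen before lymph node). Thinned cells gave -0.17 for Foxp3 in spleen, 0.33 and 0.18 for ICRE, -0.0079 for Ly6c1 in lymph node and -0.018 for Il2ra in spleen. The mean of per-cell CPM gave 0.32 and 0.17 for ICRE, -0.34 for Klrg1 in spleen and -0.088 for Ifit1 in lymph node. Centring on the median gene gave 0.31 and 0.18 for ICRE, -0.57 and -0.24 for Klrg1, and 0.37 and 0.12 for Ly6c1. Without the 6% of cells with most UMIs, values were -0.13 and 0.0085 for Foxp3, 0.35 and 0.17 for ICRE, -0.15 and -0.023 for Klrg1, -0.024 and 0.0047 for Il2ra, and 0.027 and -0.066 for Ifit1. Depth-matched, they were 0.12 and 0.12 for Foxp3, 0.20 and 0.12 for ICRE, 0.022 and 0.075 for Klrg1, 0.24 and 0.012 for Ly6c1, 0.053 and 0.032 for Il2ra, and 0.15 for Ifit1 in spleen. With the gate called on thinned cells, they were -0.030 and 0.041 for Foxp3, 0.22 for ICRE in lymph node, 0.40 for Ly6c1 in spleen, 0.11 and 0.073 for Il2ra, and 0.16 for Ifit1 in spleen. The signs of the Foxp3, Klrg1 and Il2ra ratios in both libraries, and of the Ly6c1 and Ifit1 ratios in lymph node, thus depend on the setting, and the cause was not tested. No filter on cells, and leaving out cells with other cell type markers, moved none of these family ratios. At a 2-fold threshold, 1 member (Gimap7) was lower in spleen, where 0.238% of genes were. No paired analysis was possible because there is 1 library per tissue. One library per tissue, sparse UMIs per cell and gates that miss expressing cells limit these values.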
